A study of Drosophila melanogaster with 2 samples.

Results

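Chromatin immunoprecipitation followed by sequencing (ChIP-seq) was used to map the genomic regions recovered with espinas (esn) in whole Drosophila melanogaster white prepupae, animals that have just begun metamorphosis. They came from a transgenic line with stable expression of esn fused at its C-terminus to green fluorescent protein (GFP). Males and females were pooled, and an anti-GFP antibody was used for precipitation. There was a single group with 2 biological replicates, the labels do not say how the animals of each were raised or collected, and the spread between the replicates may be technical. No untagged group was included and the control libraries were not analysed here, so binding by esn cannot be told apart from other recovery at a promoter. All regions described below are promoter regions of 1 gene only, that is, regions whose summit lay within 500 bases of a protein-coding transcript start of exactly 1 gene. The summit is the position where the authors placed the highest signal of a region. Of the 10918 regions on the arms 2L, 2R, 3L, 3R, 4 and X in the authors' list of reproducible regions (the IDR list, for irreproducible discovery rate), 3004 met this rule (27.5%). They made up 65.6% (95% Wilson interval 64.2 to 67.0) of the 4577 promoter regions. The other 1573 promoter regions lay near starts of several genes, exactly 2 genes in 95.2% of them, and 6341 regions lay away from promoters. The 3004 regions formed 2722 separate runs of overlapping regions, and 66 repeated the coordinates of another. They lay at 2394 genes.

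A promoter of a single gene has a known direction of transcription, which a promoter shared by neighbouring genes does not. In flies, core promoters fall into broad kinds. Genes of restricted expression often use the TATA box, the initiator and the downstream promoter element, and their promoters often hold GAGA repeats, bound by the GAGA factor (Trl) and CLAMP. Genes active in most cells more often use the DNA replication-related element (DRE), bound by Dref and BEAF-32, Motif 1, bound by M1BP, and Ohler motifs 6 and 7, and many of them lie head to head with a neighbour. The tagged protein, espinas, has LIM domains and is a relative of Prickle, which acts in planar cell polarity.

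The sequences that follow show the elements that differed from shared promoters, and the initiator, for which no difference was called. The initiator is an element of the start itself, but the match shown lies upstream of it, at -84 bases. All sequences were read from Release 6 of the genome, which has dm6 coordinates. They are printed 5′ to 3′ on the strand of the gene with the element in capitals. DRE is TATCGATA, and it was found in 188 of the 3004 windows of 201 bases centred on the summits. CG11151 is shown as the strongest region with a DRE among the arms from which sequence is printed, and the other genes were named for their lists or their number of regions. Their coordinates are chrX:13739429-13739506 on the plus strand for CG11151, chrX:19597919-19597996 on the plus strand for RpS10b, chr3R:9245875-9245904 on the minus strand for Vps15, chr2L:203760-203789 on the plus strand for mRpL10, chr2L:8381765-8381794 on the minus strand for AlaRS and chr3R:21140640-21140717 on the plus strand for SNF4Agamma. The middle of the element lay at -276, -73, -20, -4, -15 and -60 bases from the nearest start in that order, where negative positions are upstream.
CG11151: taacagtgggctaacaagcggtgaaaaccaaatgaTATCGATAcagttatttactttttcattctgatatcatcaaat
RpS10b: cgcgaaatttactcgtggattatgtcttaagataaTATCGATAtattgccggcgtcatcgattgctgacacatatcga
Vps15: gccagtgtactTATCGATAacatcgattgg
mRpL10: aaatatctggcTATCGATAagaatgaataa
AlaRS: atctctaaatcTATCGATAtctcatccagt
SNF4Agamma: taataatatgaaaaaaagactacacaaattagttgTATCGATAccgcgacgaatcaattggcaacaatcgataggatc

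Motif 1, GGTCACAC, was found in 142 windows. Its 3 examples lie at chr2L:19009261-19009290 (RpL30), chr3R:24105747-24105776 (Syx1A) and chr3R:5297497-5297526 (mtd), all on the minus strand. In each the element reads in the direction of transcription, with its middle at 30, 1 and 4 bases from the start. Ohler motif 7 is CAGCNCTA or CAGCNCTG or CATCNCTA or CATCNCTG, where N is any base, and was found in 472 windows. It is shown for Eno at chr2L:1728009-1728038 on the minus strand, where it reads against the gene at -306.
RpL30: atccccccgtcGGTCACACcaacacaaacg
Syx1A: agtgacggcacGGTCACACtcgaaaattgt
mtd: aaccgagctgcGGTCACACtgctggccaat
Eno: ttttccacactTAGAGATGggcaaaaatac

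The GAGA repeat, GAGAGAG, was found in 229 windows. It is shown at chr2L:8277729-8277805 (Btk), chr3L:9377439-9377515 (Hsp26) and chrX:9651130-9651206 (Ptpmeg2), on the minus strand in all 3 cases. The repeat reads as its complement, CTCTCTC, on the gene's strand, at -65, -50 and -392 bases. The window of Ptpmeg2 held 7 matches, overlapping ones included. The CA repeat, ACACACA, was found in 244 windows and is shown at chr2L:20085153-20085229 on the minus strand for fok, at -121.
Btk: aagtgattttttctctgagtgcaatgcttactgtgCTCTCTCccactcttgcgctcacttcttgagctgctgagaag
Hsp26: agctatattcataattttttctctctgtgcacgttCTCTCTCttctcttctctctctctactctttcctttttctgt
Ptpmeg2: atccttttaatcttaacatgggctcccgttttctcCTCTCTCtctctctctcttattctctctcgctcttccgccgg
fok: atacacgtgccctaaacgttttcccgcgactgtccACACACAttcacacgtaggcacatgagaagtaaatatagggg

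The last sequences come from stronger regions. The TATA box, TATAAA, was found in 928 windows and is shown at chr3R:12449119-12449194 (CG18549, plus strand), at -139. The initiator, TCAGTC or TCAGTT or TCATTC or TCATTT, was found in 1299 windows and is shown at chr3L:19590571-19590646 (CG14100, minus strand), at -84. The E-box CAGCTG (Ohler motif 5) was found in 342 windows and is shown at chr3R:5791781-5791856 (Hpf1, plus strand), at -60.
CG18549: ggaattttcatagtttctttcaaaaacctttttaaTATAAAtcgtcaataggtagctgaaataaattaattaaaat
CG14100: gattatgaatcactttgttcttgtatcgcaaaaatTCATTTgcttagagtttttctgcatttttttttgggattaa
Hpf1: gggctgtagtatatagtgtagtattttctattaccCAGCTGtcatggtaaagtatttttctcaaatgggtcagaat

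The strongest promoter regions of 1 gene were high in both replicates. The signal value of a region is the authors' own measure of enrichment. It has no stated scale and serves here only to rank and describe regions within 1 list, and without read counts the depth behind it is unknown. Over the 3004 regions it ran from 164 to 8139 in the IDR list, with a median of 307 and quartiles of 217 and 532. The strongest region lay at CG14100 (FBgn0036889, 3L, 19590351 to 19590881) and ranked 2 in the IDR list and 2 in either replicate list. It was followed by CG1888 (2R, 9546880 to 9547718), with a signal of 7366 and ranks of 3 and 4 in replicates 1 and 2. Ugalt, a UDP-galactose transporter, had a signal of 7190 and ranks of 5 and 3, and PNPase, a mitochondrial RNA-processing enzyme, 6907 and ranks of 8 and 6. The order of these 4 differed between the replicates by at most a few ranks.

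The next regions belonged to genes of varied function. CG18549 had a signal of 6103 and ranks of 14 and 11. At larp, which encodes an RNA-binding protein of translation control, the signal was 6002 and the rank 12 in both replicates. Hsp27, a small heat shock protein, had 5494 and ranks of 26 and 10. Among the 10 strongest were also mRpL41, a subunit of the mitochondrial ribosome (5456, ranks 17 and 24), gish, a casein kinase (5206, ranks 25 and 17), and Fkbp14, a prolyl isomerase of the endoplasmic reticulum (5036, ranks 28 and 19). Of the 10, only PNPase had its summit downstream of the start, at 81 bases, and the other 9 summits lay between -35 (Ugalt) and -332 (larp). The strongest regions of the remaining arms lay at Trp1 on 2L, a protein of import into the endoplasmic reticulum (4048, ranks 53 and 42), and at gw on 4, a factor of microRNA silencing (1097, ranks 912 and 1330). Chromosome 4 held 20 of these regions among 24 promoter regions. On the larger arms the share of promoter regions with 1 gene ran from 61.6% on 3R (interval 58.8 to 64.4) to 71.1% on X (67.9 to 74.2).

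**Figure D1:**
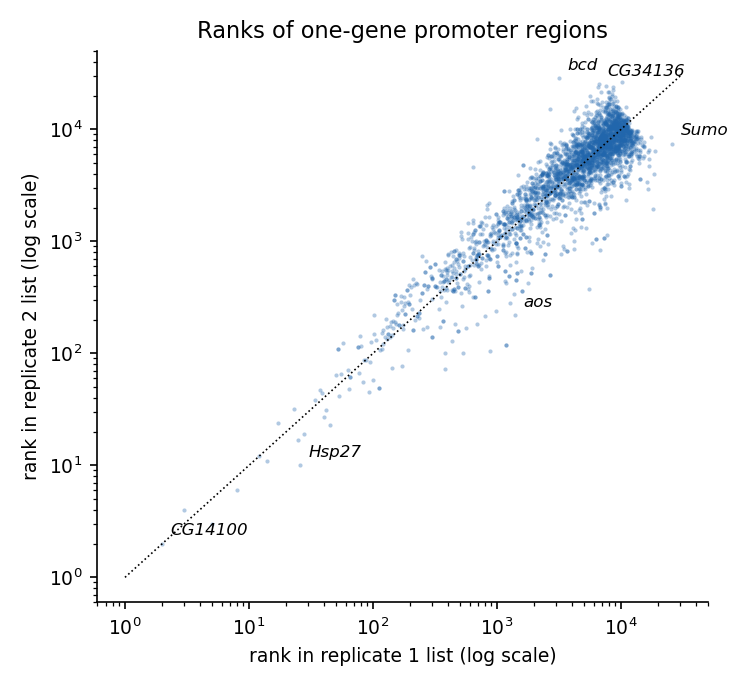
Rank of each promoter region of 1 gene in the replicate 1 list (x axis) and the replicate 2 list (y axis), both on log scales, for the 2954 regions with an overlapping region in both lists; the dotted line marks equal ranks. CG14100 ranked 2 in both, whereas bcd, CG34136 and Sumo lie farthest from the line in rank, each with summits that differ between the lists.

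Support in the replicates followed the strength of the region. Of the 3004 regions, 2954 (98.3%, interval 97.8 to 98.7) overlapped a region in both replicate lists of 30000 regions each, and 2526 (84.1%, interval 82.7 to 85.4) did so for the strongest 10918 of both. Since the IDR list was derived from lists of the same libraries, these shares describe it and are no separate test. From the weakest to the strongest quintile of the 3004 regions, the second share was 43.4%, 83.5%, 95%, 98.7% and 99.8%. A further 280 regions (9.32%) were among the strongest of replicate 1 alone and 185 (6.16%) of replicate 2 alone. The largest gaps in rank were at bcd, the maternal anterior determinant (3137 in replicate 1, 28620 in replicate 2), CG34136 (6679 and 25262) and Sumo, a ubiquitin-like modifier (25815 and 7425). A match needed an overlap of 1 base only, and the summits here differed between lists. In the IDR list, replicate 1 and replicate 2 they lay at -190, -194 and -388 for bcd and at -285, -272 and -54 for CG34136. For Sumo they lay at -412, -91 and -93. These gaps may therefore not compare the same site. At aos, a secreted inhibitor of the EGF receptor, the ranks were 1384 and 219.

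Regions of 1 gene were weaker than regions shared by several genes. In the IDR list, 46.5% of them (1396 of 3004) lay above the median signal of all regions, against 55.2% of shared promoter regions (869 of 1573), a difference of -8.77 percentage points (95% Newcombe interval -11.8 to -5.73). Among regions away from promoters the share was 50.4%, a difference of -3.90 points (-6.06 to -1.73). A difference is called where its interval leaves out 0. Regions are not replicates of the condition, and all intervals cover counting error only. By the rule, shared regions have starts of more genes around them, and the part of this in the difference was not tested. Where only summits within 100 bases of a start were compared, the difference was -18.5 points (-22.5 to -14.4), whereas it was -5.32 points (-8.04 to -2.58) with a distance of 1000 bases and -4.46 points (-8.66 to -0.223) in the strongest 5459 regions.

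Replicate support differed in the same direction. Regions of 1 gene were among the strongest of both replicates in 84.1% and shared regions in 88.8%, a difference of -4.72 points (-6.72 to -2.64). In quintiles of the whole IDR list by signal the shares were 45.7% (interval 41.9 to 49.5) and 56.2% (50.2 to 62.0) in the weakest, 86.6% and 86.1% in the next, and 95.8% and 95.7% in the middle. No difference could be called in the strongest 5459 regions (-0.0952 points, -1.03 to 1.01). Against regions away from promoters the difference was 0.868 points (-0.756 to 2.44) and was not called.

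Summits lay mostly upstream of the start. The nearest start of the gene was downstream of the summit in 2234 of 3004 regions (74.4%, interval 72.8 to 75.9), against 50% if the sides were equal. With the summits of the overlapping regions in each replicate list, the shares were 73.6% in replicate 1 and 74.2% in replicate 2. The median position was -92 bases, with quartiles of -223 and 2.25, and -92.5 and -99 in the replicates. Summits of the 2 replicates lay a median of 27 bases apart (quartiles 10 and 56) and on the same side of the start in 89.8% of 2954 regions. The bin of 50 bases just upstream of the start held 452 summits (15%), the most in the IDR list and in replicate 1 (414), whereas in replicate 2 the bin before it held 366 and this bin 359.

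The upstream share was higher in stronger regions. It was 66.4%, 68.6%, 70.5%, 80.4% and 86.0% (interval 83.0 to 88.6) from the weakest to the strongest quintile. The median signal was 252 for summits in the 50 bases upstream of the start and 239 in the 50 bases downstream, and 453 for summits from -350 to -300. Far downstream it also reached high values in bins of few summits. It was 219 from 250 to 300 (36 summits), 368 from 300 to 350 (34) and 441 from 400 to 450 (26). At genes with 1 start within the distance the upstream share was 75.9% (1883 of 2480), and where 2 or more starts of the gene lay there it was 67.0% (351 of 524). Just inside the distance limit, 120 summits of any class lay in the last 50 bases, 119 of them with 1 gene, and 115 lay in the first 50 bases beyond it.

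**Figure D2:**
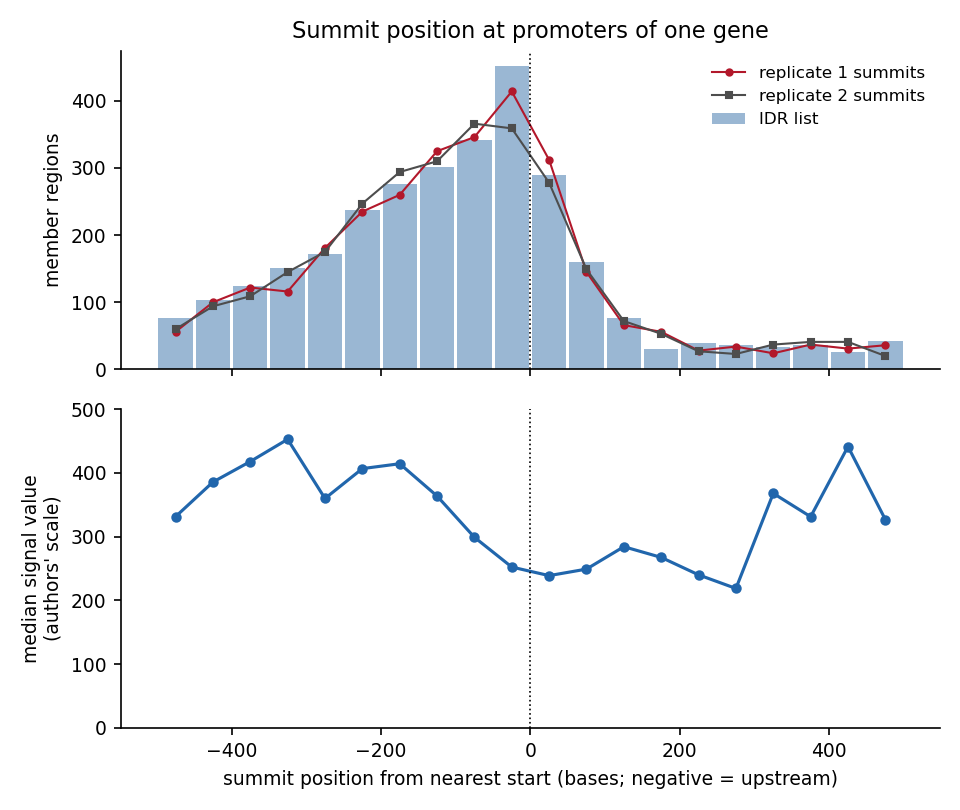
Upper panel, number of promoter regions of 1 gene by summit position in bins of 50 bases from the nearest start (negative is upstream), for the IDR list (bars) and for the overlapping regions of each replicate (lines); lower panel, median signal value on the authors' scale in the same bins. The bin just upstream of the start holds 452 summits, and its median signal of 252 is below the 453 of the bin from -350 to -300 and the 441 of the bin from 400 to 450.

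By annotation, 42.2% of the summits lay between genes, 26.4% in an intron of the gene itself, 22.9% in its 5′ UTR and 0.766% in its coding exons. A further 3.99% lay in an exon and 3.76% in an intron of another gene. The summit at elav, the neuronal RNA-binding protein, was an example of the last kind. For 8.16% of the regions, the start of a gene with no protein-coding transcript also lay within 500 bases. The nearest start of another protein-coding gene was a median of 2877 bases from the summit, and 501 to 1000 bases away in 14% of regions.

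Sequence at the summits was richer in G and C than at other regions of the list. In the windows of 201 bases around them, G+C content averaged 38.5% (SD 8.50, 3004 regions), against 35.5% (SD 6.96, 1573 regions) at shared promoters and 34.7% (SD 6.67, 6341 regions) away from promoters. The difference from shared promoters was 3.06 points (95% normal interval 2.60 to 3.52), and it was 1.69 points with a distance of 1000 bases, 1.97 in the strongest 5459 regions and 4.83 for summits within 100 bases of a start. It was 3.86 points (3.52 to 4.21) against regions away from promoters.

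GAGA and CA repeats were more frequent at promoters of 1 gene than at shared promoters, and Ohler motif 7, DRE, Motif 1, the E-box and the TATA box were less frequent. Of 18 motifs counted on both strands within 100 bases of the summit, 2 were more frequent and 5 less frequent, with intervals widened for 18 comparisons. GAGA was present in 7.62% of windows (interval 6.73 to 8.63) against 1.27% at shared promoters, a difference of 6.35 points (4.59 to 8.04). Windows of the same length that end at each of the 19607 annotated protein-coding starts held it in 6.18%, and windows at regions away from promoters in 3.22%. The windows at all starts hold no bases downstream of the start. Their shares therefore leave out matches there. Within 300 bases of the starts nearest to members, the initiator, Motif 1, Ohler motif 7 and the downstream promoter element had their highest counts downstream. So did the CA repeat, at 240 to 260 bases, and the Zelda, Pho, AP-1 and Su(H) sites. For these motifs the shares at all starts are not a like measure. The CA repeat was present in 8.12% against 4.45% (difference 3.67 points, 1.39 to 5.76), with 6.99% at all starts, a call that was lost within 50 bases of the summit (0.547 points, -1.11 to 1.96) and in the strongest 5459 regions (1.54 points, -1.47 to 4.25).

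The 5 motifs that were less frequent were Ohler motif 7, the TATA box, DRE, the E-box and Motif 1. Ohler motif 7 was present in 15.7% of windows against 27.1% at shared promoters (difference -11.4 points, -15.3 to -7.54), with 12.1% at all starts. DRE was present in 6.26% against 12.2% (-5.95 points, -8.89 to -3.26), with 6.22% at all starts and 0.552% at regions away from promoters. The TATA box was present in 30.9% against 38.5% (-7.63 points, -12.1 to -3.21), with 33.5% at all starts. For the E-box the shares were 11.4% and 14.9% (-3.49 points, -6.80 to -0.394), with 12% at all starts, and the call was lost without replicate 2 (-2.78 points, -6.09 to 0.299) and in 5 other recalculations. For Motif 1 they were 4.73% and 6.99% (-2.27 points, -4.67 to -0.134), with 3.33% at all starts. The Motif 1 call was lost in 5 recalculations, among them a distance of 250 bases (-0.158 points, -3.32 to 2.42) and 1 region per run (-2.12 points, -4.78 to 0.203), and among summits within 100 bases of a start the sign was opposite (0.659 points, -3.18 to 4.35). At least 1 of DRE, Motif 1 and Ohler motif 7 was present in 23.5% of windows of 1 gene and in 40.1% of shared ones, a difference of -16.6 points (95% Newcombe interval -19.4 to -13.7).

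Base composition differed with some of these motifs. Among members, mean G+C was 45.8% in windows with GAGA and 37.9% in those without, 43.0% and 38.1% for the CA repeat, and 34.2% and 40.4% for the TATA box. For the 4 other called motifs the values were 38.4% and 38.5% for DRE, 40.9% and 38.4% for Motif 1, 40.1% and 38.2% for Ohler motif 7, and 41.5% and 38.1% for the E-box. The part of base composition in the differences between the classes was not tested. In windows of 33 to 40% G+C only, 970 of 1 gene and 568 shared, 1 of the 18 motifs differed, Ohler motif 7 (-13.6 points, -20.6 to -6.75). There the difference was 2.78 points (-0.243 to 5.44) for GAGA, 2.87 (-0.827 to 6.11) for the CA repeat and -1.04 (-8.61 to 6.33) for the TATA box. It was -4.71 (-9.998 to 0.0187) for DRE, -3.65 (-8.22 to 0.258) for Motif 1 and -4.50 (-10.3 to 0.785) for the E-box, none of them called. The last 2 were larger in size than in all windows, and that for DRE was smaller. With fewer windows the intervals were wider.

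The other 11 motifs showed no called difference from shared promoters. They were the initiator, the downstream promoter element (AGACGTG or GGACGTG), Ohler motif 6 (GTATATTT or GTATTTTT), the Zelda site CAGGTA, the GATA site AGATAAG, the AP-1 site (TGACTCA or TGAGTCA), the cyclic AMP response element TGACGTCA, the Su(H) site TGGGAA, the Pho site (GCCAT followed by 3 bases of restricted choice), the ecdysone response element and the heat shock element. The initiator was present in 43.2% against 41.1% (2.17 points, -2.44 to 6.73), with 44.2% in the windows that end at all starts, which is not its share at the start itself. Ohler motif 6 was present in 8.39% against 11.1% (-2.67 points, -5.61 to 0.0300), with 8.76% at all starts. The shares at all starts were 1.56% for the downstream promoter element, 4.35% for the Zelda site, 3.52% for the GATA site, 1.78% for the AP-1 site, 0.393% for the cyclic AMP response element, 11.2% for the Su(H) site and 8.14% for the Pho site. The ecdysone response element was found at 1 region of 1 gene and the heat shock element at 9, with 0.0561% and 0.265% of all starts. None of these matches shows that a factor was bound.

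**Figure D3:**
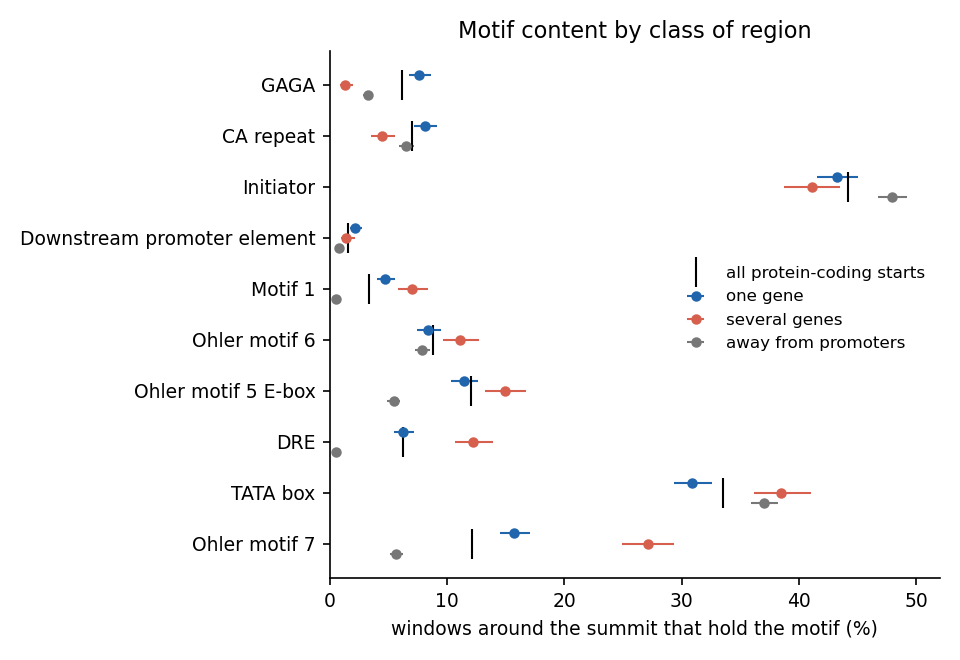
Share of windows of 201 bases that hold each motif (x axis, percent) at promoter regions of 1 gene, promoter regions of several genes and regions away from promoters, with 95% Wilson intervals as lines; black ticks mark windows that end at all protein-coding starts. GAGA stands at 7.62% for 1 gene and 1.27% for several genes, and Ohler motif 7 at 15.7% and 27.1%.

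Against regions away from promoters 8 motifs differed, 6 more frequent and 2 less frequent. DRE was at 6.26% against 0.552%, Motif 1 at 4.73% against 0.473%, Ohler motif 7 at 15.7% against 5.63%, the E-box at 11.4% against 5.43%, GAGA at 7.62% against 3.22% and the downstream promoter element at 2.13% against 0.773%. The TATA box (30.9% against 37.0%) and the initiator (43.2% against 47.9%) were less frequent. Promoters of 1 gene thus stood between shared promoters and regions away from promoters in DRE, Motif 1, Ohler motif 7 and the E-box, but above both in GAGA.

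The elements also varied within the regions of 1 gene. From the weakest to the strongest quintile by signal, the share with a TATA box was 25.5%, 25.5%, 32.2%, 32.3% and 39.1%. For DRE it was 7.32%, 9.82%, 6.50%, 5.49% and 2.16%, and for Motif 1 it was 6.32%, 7.65%, 4%, 4.66% and 0.998%, which in the strongest quintile was 6 of 601 regions. The GAGA share was 8.32%, 8.99%, 9%, 6.16% and 5.66%, and that of Ohler motif 7 was 13.5%, 17.6%, 18%, 18.5% and 11%. The median signal was 251 with a DRE and 314 without, 244 with Motif 1 and 313 without, and 346 with a TATA box and 288 without. Summits with DRE or Motif 1 lay nearer to the start, at median positions of -41.5 and -18.5, than those with a TATA box, at -139. Windows with a TATA box averaged 34.2% G+C and those without 40.4%. Summits lay upstream in 66.4% of the weakest quintile and 86.0% of the strongest. The parts of base composition and summit position in the order by signal were not tested. DRE, Motif 1 or Ohler motif 7 was less frequent in windows with GAGA, and the CA repeat more frequent. Of 229 windows with GAGA, 12.2% (interval 8.60 to 17.1) also held DRE, Motif 1 or Ohler motif 7, against 24.5% (22.9 to 26.1) of the 2775 without. The CA repeat was in 15.7% (11.6 to 21.0) of windows with GAGA and 7.50% (6.57 to 8.54) of those without. A TATA box was in 20.5% (15.8 to 26.2) of windows with GAGA and 30.9% of all members, which include those with GAGA. Mean G+C was 45.8% in windows with GAGA and 37.9% in those without, and its part in these contrasts was not tested.

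With a single gene the strand of each element could be read against transcription. Around the 2732 distinct starts nearest to these regions, the initiator was most frequent in the 20 bases from the start on, with 622 matches, 580 of them on the sense strand. Motif 1 had its highest count in the same bin (64 matches, 61 sense), and the downstream promoter element from 20 to 40 bases downstream (57 matches). DRE was most frequent from -60 to -40 (55 matches), with 84.3% of its 331 matches upstream. GAGA was most frequent from -100 to -80, with 46.1% of its matches sense (interval 42.1 to 50.2) within 100 bases of the start. Overlapping matches in a repeat were counted separately. Within the same distance the sense share was 77.6% for Motif 1 (71.5 to 82.7), 74.8% for the downstream promoter element (65.8 to 82.0), 73.2% for Ohler motif 7 (69.6 to 76.5) and 70.2% for the initiator (68.2 to 72.2).

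For the TATA box a narrow maximum stood apart from a broad upstream spread. Each bin from -300 to -140 held 135 to 176 matches, on both strands, with the most at -280 to -260. In a separate local maximum from -40 to -20 it had 124 matches, 95 of them sense. Only the latter is the place a TATA box takes in textbook core promoters. The matches were counted by sequence around starts, whether or not a summit lay on them.

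**Figure D4:**
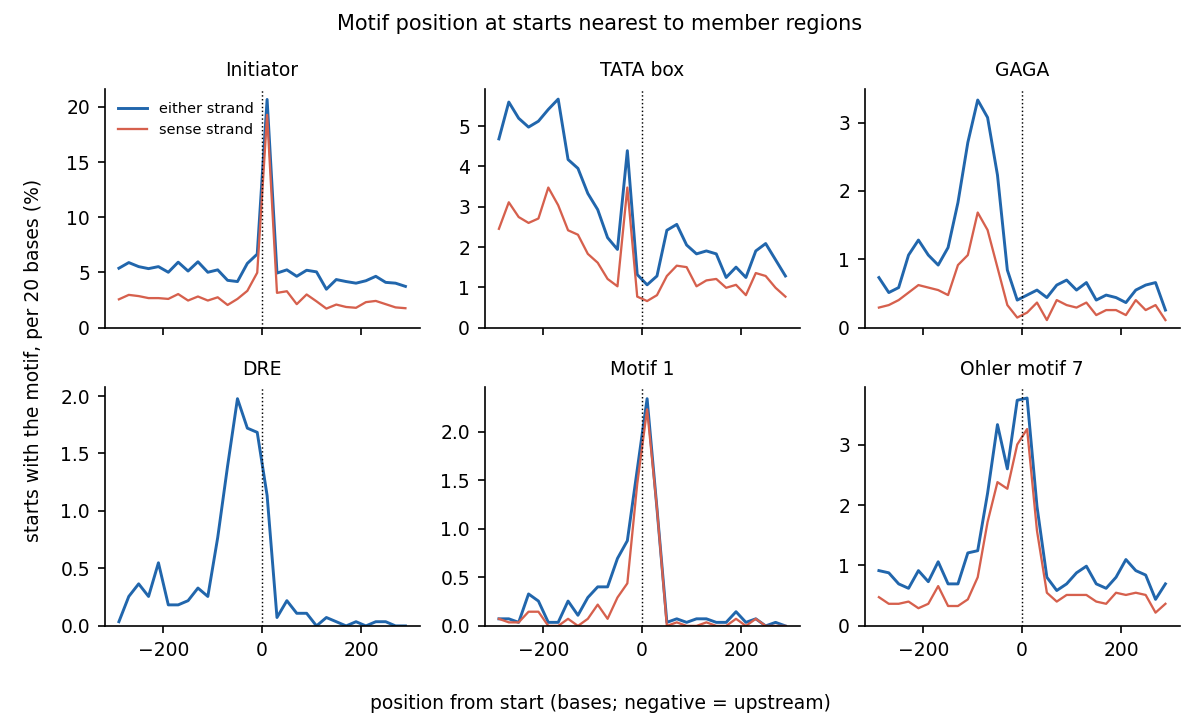
Share of the 2732 starts nearest to promoter regions of 1 gene that hold a motif in each bin of 20 bases (y axis, percent; the scale differs between panels) against position from the start (negative is upstream), on either strand and on the sense strand; DRE is its own reverse complement and has 1 line. The initiator and Motif 1 have their highest bin just downstream of the start, DRE at -60 to -40 and GAGA at -100 to -80.

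Genes with no close neighbour were less often found with a promoter region than the others. Of 7960 genes with no other protein-coding start within 1000 bases of any of their own starts, 22.4% (interval 21.5 to 23.3) had a promoter region, against 52.7% (51.4 to 53.9) of the other 5985, a difference of -30.3 points (95% Newcombe interval -31.8 to -28.7). A gene with a close neighbour can also be counted through a region at that neighbour's start, and how far this accounts for the difference was not tested. Among genes with 1 start the shares were 16.0% and 47.1%, with 2 starts 35.3% and 60.9%, and with 3 or more 61.2% and 75.7%. Regions of 1 gene were held by 10.2% of the genes with a close neighbour.

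Genes with a region of their own were described by length and starts, with no test. Their median length was 5080 bases, against 2352 for the 2542 genes with shared regions only and 1801 for the 9009 genes with no promoter region. Median first intron lengths were 967, 78 and 67 bases, and 51.4%, 30.7% and 18.7% of the genes had 2 or more starts. A gene with more starts has more places where a region can be counted. Of the 2394 genes, 1905 had 1 region and 489 had 2 or more, and in 276 the regions lay at 2 or more nearest starts. The most regions, 7, were at SNF4Agamma, the gamma subunit of AMP-activated kinase, which has 11 starts. The 7 signals ran from 190 to 1103. The transcription factor gene shn, which acts in Dpp signalling, had 6 regions (167 to 1402). Ptpmeg2, a tyrosine phosphatase, Eip75B, an ecdysone-induced nuclear receptor, and mtd had 5 each, and are 3 of the 5 genes with that number, taken in order of gene identifier. At Ptpmeg2 the strongest signal was 2911 and at Eip75B 1965, whereas at mtd it was 1206. Some of these regions overlap, so they are not all separate places.

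The tagged gene itself had 2 such regions. One lay at its first start (2R, 7086184 to 7086302, signal 272, ranks 7235 and 6188), the other at the start of a shorter transcript (2R, 7106334 to 7106809, signal 171, ranks 11337 and 10374). Both lay below the member median of 307. The line carries an esn transgene, and added copies of its sequence cannot be told apart from recovery at this gene.

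Ecdysone is the steroid hormone that drives metamorphosis, and genes of its response list held promoter regions of their own most often among 17 gene lists. Of 37 matched genes 23 (62.2%) had one, against 17.2% of all 13945 protein-coding genes (2394 genes). Shared regions only were held by 3 of the 37 and by 2542 of all genes. Of the 37, 28 had no other protein-coding start within 1000 bases of theirs, against 7960 of all genes. By the rule, such genes can hold no shared region. Sox14, an ecdysone-induced transcription factor, had a signal of 4314 and ranks of 37 and 47, E23, an ABC transporter, 2932 with ranks of 141 and 74, and Ldh, lactate dehydrogenase, 2603 with ranks of 192 and 107. The strongest regions of 12 of the 23 lay above the member median, against 53.7% over all 2394 genes, and 18 were among the strongest of both replicates, against 83.5% over all 2394 genes. The lists were chosen with earlier results of these data known. They are described by counts, with no test, and several share genes. The median number of starts was 2 in this list and 1 over all genes.

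Heat shock, nuclear receptor, signalling and axon guidance lists also stood above the overall share of 17.2%. Heat shock and chaperone genes had 12 of 25, led by Hsp27, by Hsp83, the fly Hsp90 (1894, ranks 356 and 318), and by the small heat shock gene Hsp26 (1835, ranks 371 and 364). Regions at the near-identical Hsp70 copies are uncertain, since how reads that match several copies were handled is not given in the sources used here. Nuclear receptors had 9 of 21, led by Eip75B, Hnf4 (1490) and Hr78 (589). Genes of signalling pathways had 27 of 64, led by spi, the main ligand of the EGF receptor (1939), aos (1412) and puc, a phosphatase of the JNK pathway (1178). Axon guidance and adhesion genes had 22 of 53, led by the immunoglobulin-family gene tutl (1803), the netrin receptor unc-5 (1620) and the kinase Pak (1019).

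Homeodomain and selector transcription factor genes had 21 of 68 (30.9%), and none of the 68 had shared regions only. Over all 13945 protein-coding genes, 17.2% had a region of their own and 2542 had shared regions only. Of the 68, 66 had no other protein-coding start within 1000 bases of theirs. By the rule, these 66 could hold no shared region. The 21 were led by the heart determinant tin (1646) and the eye gene so (518). The strongest regions of 4 of the 21 lay above the member median, against 53.7% over all 2394 genes with a region of their own. Of the planar cell polarity and Hippo genes, 12 of 32 had a region of their own and 10 shared regions only, with app, a palmitoyltransferase acting on Fat signalling (1022), Mer (945) and the cadherin ft (769) in front. Chromatin and insulator genes had 16 of 44, with ph-p, a Polycomb group subunit (3627), Trl, the GAGA factor (1000), and BEAF-32 (628). Autophagy and cell death genes had 10 of 35, led by the cell death activator hid (2095), by Vps15, a subunit of the Vps34 kinase complex (575), and by Atg8a (390). Muscle structure genes had 8 of 29, led by the nesprin gene Msp300 (2994), tropomyosin Tm1 (886) and alpha-actinin Actn (403).

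Ribosomal protein, proteasome and aminoacyl-tRNA synthetase lists divided between regions of their own, shared regions only and no promoter region. Over all 13945 protein-coding genes, 2394 (17.2%) had a region of their own, 2542 had shared regions only and 9009 had none. Cytosolic ribosomal protein genes had 39 of 92 with a region of their own, 36 with shared regions only and 17 with none. The strongest were RpL24 (1252), RpL23A (1101) and RpS10b (1063). In this list the strongest regions of 35 of the 39 lay above the member median, against 53.7% over all 2394 genes. Of the list's 49 regions 26 held DRE, Motif 1 or Ohler motif 7 and 0 held GAGA, against 23.5% and 7.62% of all members. Mitochondrial ribosomal protein genes had 4 of 73 with a region of their own and 47 with shared regions only. The 4 were led by mRpL41, followed by mRpL10 (445) and mRpL9 (278). Proteasome genes had 5 of 48 with a region of their own, 18 with shared regions only and 25 with none. Their strongest were Rpn11 (480), Rpn12 (313) and Rpn10 (232). Aminoacyl-tRNA synthetases had 5 of 31 (16.1%) with a region of their own, near the overall share, 12 with shared regions only and 14 with none. The strongest of these were AlaRS (423), PheRS-m (258) and GluProRS (216).

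Cuticle protein and chemosensory lists stood lowest. Cuticle protein genes had 2 of 121, at Cpr49Ah (262) and Cpr12A (239), and no region in the replicate 2 list overlapped that of Cpr49Ah. Chemoreceptor and odorant-binding protein genes had 4 of 230, with Obp83g (756), Obp99b (494) and Ir94f (301) in front. Neuronal function genes had 5 of 30, near the overall share, with elav (2464), Csp, a synaptic vesicle chaperone (274), and Syx1A, the syntaxin of vesicle fusion (271). Whole animals were used, so a region present in few cells and a weak region present in many cannot be told apart.

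**Figure D5:**
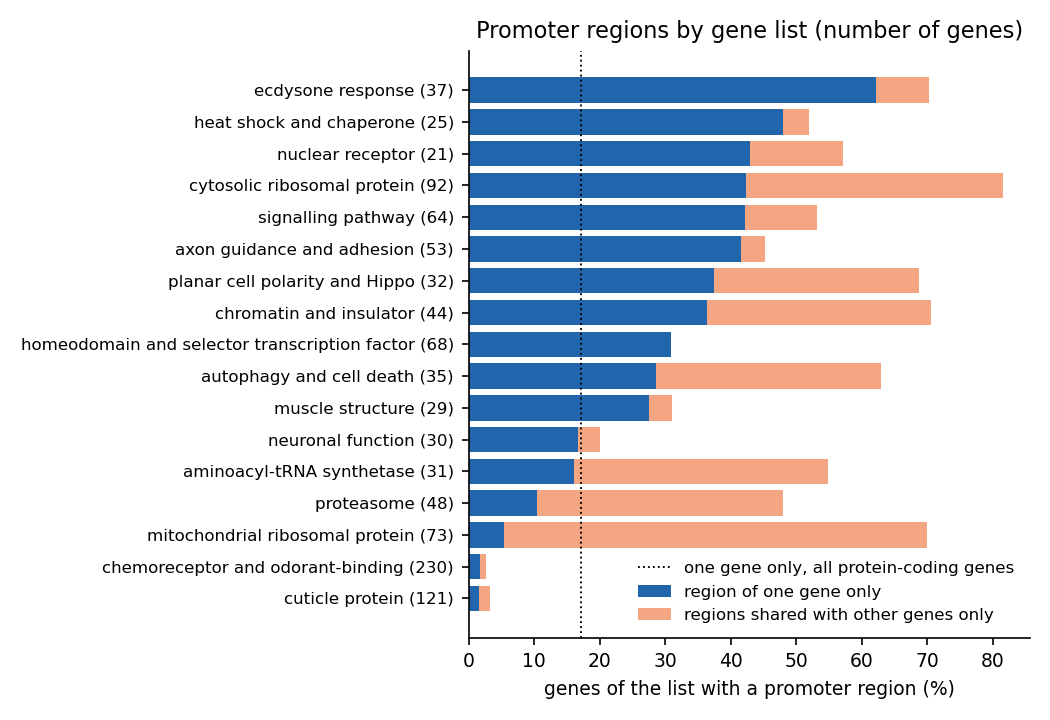
Share of the genes of each list (number of genes in parentheses) with a promoter region of 1 gene only, and with regions shared with other genes only (x axis, percent); the dotted line marks the 17.2% of all protein-coding genes with a region of their own. Ecdysone response genes stand at 62.2%, and mitochondrial ribosomal protein genes at 5.48% with most of their regions shared.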

How the data were processed

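ChIP-seq of esn-GFP white prepupae gave lists of regions for 2 replicates and an IDR list. According to the descriptions deposited with the files, the authors made each replicate list from its alignment and a control file and derived the IDR list from these and a pooled list, on dm6. Which peak caller and IDR cut-off they used is not given in the sources used here. Signal values and summit offsets are the authors', as deposited, with no stated scale. Lists on dm3 and the pooled list were not used here. In the IDR list 5 summits lay 1 base past the region's end and were kept. Depth is unknown, since the files hold no read counts.

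Coordinates are 1-based. Starts came from Ensembl release 115 (BDGP6.54), sequence and the elements shown from Release 6 of the RefSeq genome. A region matched a replicate when it overlapped by 1 base or more. Shares carry 95% Wilson intervals and differences 95% Newcombe intervals, widened (Bonferroni) for the 18 motifs. No p-value was computed, since 1 group of 2 replicates allows none. The classing of regions and the Newcombe intervals were tested on simulated data with independent draws, and the other steps were not. The calculations were run with numpy 2.4.6, matplotlib 3.10.9, scipy 1.17.1 and pandas 2.3.3 under Python 3.11.15. Alternatives changed the distance, the starts, the list, the window and the overlap rule.

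The members, motifs and gene lists were chosen with earlier results of these data known. Genes named are those at the 10 strongest regions, the strongest of each arm and of each motif called, up to 3 per list, the 5 genes with most regions (ties by gene identifier), esn and the 3 largest rank gaps. The cytochrome P450 reductase gene Cpr was left out of the cuticle list.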

Additional observations from a re-analysis of the deposited data

How the results depend on the processing

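Of 57 recalculations of the main results, 51 kept the direction and the call, or stayed within 1.5 times for counts. The number of regions was 1396 in the strongest 5459 regions of the list, a subset by construction, and 2942 to 3129 with either replicate alone. The lower replicate support of 1 gene was no longer called in the strongest 5459 regions (-0.0952 points) or with whole replicate lists (-0.457 points). Of 18 motifs, 4 differed from shared promoters in the strongest 5459 regions, 4 within 50 bases of the summit, and 1 in windows of 33 to 40% G+C, an alternative chosen after seeing the data; the cause was not tested, and fewer regions entered the first and the last. With either replicate alone 6 to 8 motifs differed. The upstream share ranged from 68.5% (1000 bases) to 81.8% (strongest 5459 regions) and was 73.2% to 73.6% with either replicate alone. The difference in signal ran from -18.5 to -4.46 points over its recalculations and that in G+C content from 1.69 to 4.83 points. With either replicate alone they were -10.1 to -9.18 and 2.93 to 3.41 points, and that of lone from other genes -30.2 to -28.6 points. Motif 1 was at 0.659 points, not called and opposite in sign, among summits within 100 bases of a start, also chosen after seeing the data. Of the other single-motif recalculations, 17 lost a call, 6 of them for the E-box and 5 for Motif 1, and 3 gained one. No paired analysis was possible because there is a single group. Depth is unknown, so no limit from it can be given.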
